A study of Mus musculus with 2 samples.

Results

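Lysosomal proteases, hydrolases, membrane proteins and proton pump subunits were followed across the cell classes of denervated mouse muscle. The list holds 41 genes, chosen by symbol and function with earlier results of these data known, and all 41 were found among the 32287 features of the files. It comprised 7 membrane proteins, 8 cysteine proteases, 3 aspartic or serine proteases, 7 glycosidases, 7 genes of lipid and sterol handling, 7 proton pump genes and 2 regulators. Raw counts of unique molecular identifiers (UMIs, each standing for 1 captured RNA molecule) were summed per gene, cell class and library and scaled to 1000000 UMIs of that class (CPM).

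Both libraries came from male mice, 10 to 16 weeks old, with bilateral crush of the peroneal nerve, harvested 7 days post injury (7 dpi). The strain is labelled C57BL/6J, and the study's methods name the *S100GFP*-tg reporter, in which Schwann cells carry GFP. Every 2 days, 2 µg of antibody in 10 µL was injected into the tibialis anterior (TA) muscle, either goat anti-mouse IgG as the control (IgG) or an SPP1 neutralizing antibody (SPP1-nAb). Each condition was 1 droplet-based scRNA-Seq library of sorted cells. No uninjured muscle was compared here. The labels' protocol names the TA and the gastrocnemius as the muscles harvested, while the study's text names the TA alone for this experiment, and which muscles entered these libraries was not settled. The titles label both libraries as GFP-positive, whereas GFP-positive and GFP-negative cells were sorted according to the methods, and the number of pooled mice is not given in the sources used here. With 1 library per condition, a difference between IgG and SPP1-nAb has no replicate check and is not tested. All intervals are 95% intervals for counting error only. A level within a class in both libraries is a repeat across 2 differently treated libraries, not a replicate.

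Lysosomes are acidic organelles that degrade material delivered by phagocytosis, endocytosis and autophagy. A vacuolar ATPase pumps protons into the lumen, and the low pH activates cathepsins, glycosidases and lipases. In injured nerve and muscle, macrophages take up myelin and cell debris, and Schwann cells also break down their own myelin through autophagy before they turn to repair.

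Cells were assigned by marker panels that contained none of the 41 genes and not *Spp1*. The classes are therefore named "-like" and may differ from the clusters of the study. After filtering, 21046 IgG cells and 22282 SPP1-nAb cells remained, with a median of 3675 and 4583 UMIs per cell, and 163 barcodes occurred in both libraries. Mononuclear phagocyte-like cells, gated by genes such as *Csf1r* and *Adgre1*, numbered 11883 (56.5%) and 15127 (67.9%). Schwann-like cells, gated by genes such as *Sox10* and *Erbb3*, numbered 390 and 423, with a median of 2825 and 3265 UMIs. Mesenchymal-like cells, gated by genes such as *Pdgfra* and *Dcn*, numbered 2232 and 837, with a median of 4917 and 7959 UMIs. The sort shapes these shares, so they are given as a description of the cells behind each level.

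As a sum, the 41 genes took 2.24% of all phagocyte UMIs in IgG and 2.68% in SPP1-nAb. In Schwann-like cells they took 0.562% and 0.643%, and in mesenchymal-like cells 0.610% and 0.739%. The phagocyte level was thus 3.99-fold that of Schwann-like cells in IgG (log2 ratio 2.00, interval 1.96 to 2.03) and 4.17-fold in SPP1-nAb (2.06, interval 2.03 to 2.09). Over mesenchymal-like cells it was 3.67-fold in IgG (1.88, interval 1.87 to 1.89) and 3.63-fold in SPP1-nAb (1.86, interval 1.85 to 1.87). The 5 members of highest level made up 48.5% and 50.5% of the phagocyte sum, and without the 5 highest members the log2 ratio over Schwann-like cells was 1.47 in each library.

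**Figure D1:**
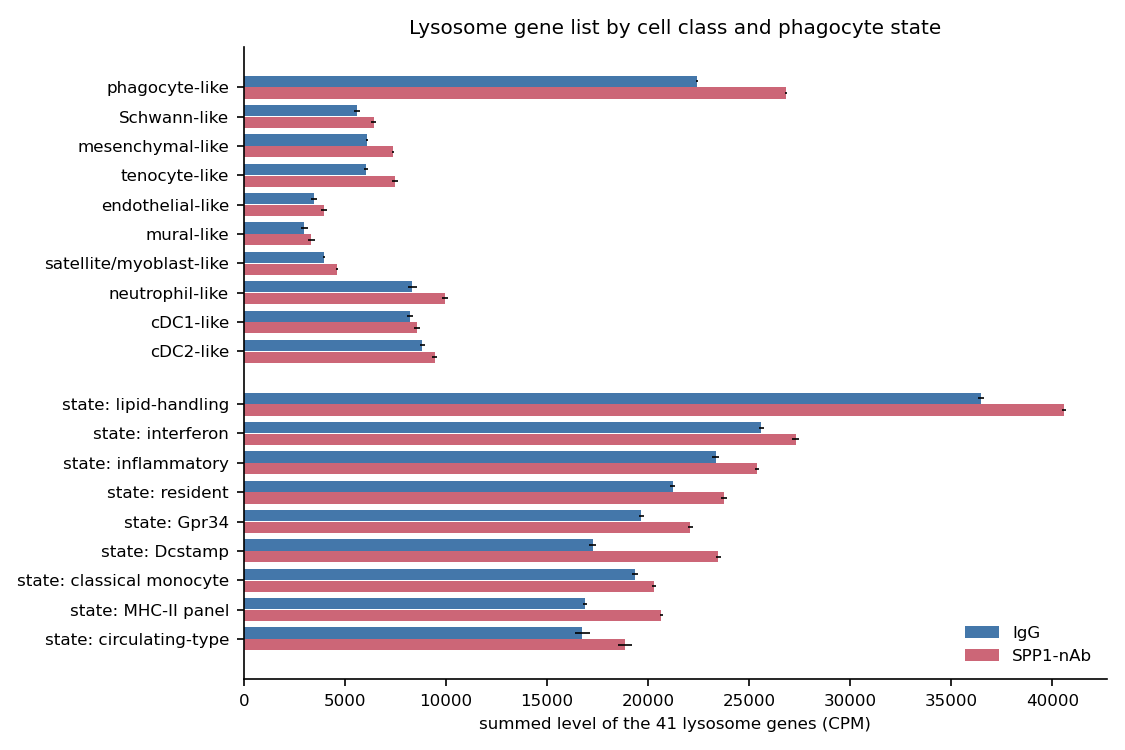
Summed level of the 41 lysosome genes (x axis, CPM) by gated cell class and phagocyte state (y axis) in the IgG and SPP1-nAb libraries (bars, with 95% counting intervals as black lines). Phagocytes lie at 22413 and 26818 CPM, Schwann-like cells at 5615 and 6434 CPM, and the bars of the lipid-handling state are the longest at 36492 and 40576 CPM.

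Many lysosome genes carry an E-box type element, known as the CLEAR element, that is bound by TFEB and its relatives. RefSeq promoter windows, from 250 bases before to 50 bases after the gene start on GRCm38.p6, were given for 35 members and were searched for the CLEAR-type palindrome TCACGTGA. The palindrome reads the same on both strands and contains the shorter E-box CACGTG. A gene was counted if any of its windows held the motif. The palindrome was found for 6 of the 35 members (17.1%), 6 of 57 other lysosome genes (10.5%) and 304 of all 27025 genes with a window (1.12%). The E-box CACGTG was found for 11 of the 35 members (31.4%), 13 of the 57 (22.8%) and 2187 of all these genes (8.09%). The matches of the longer palindrome are shown with their flanks, as the shared sequence of members that are compared by level afterward. Capitals mark the palindrome:
Ctsa, upstream match: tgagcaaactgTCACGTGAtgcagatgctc
Ctsa, downstream match: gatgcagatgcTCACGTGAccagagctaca
Ctsd: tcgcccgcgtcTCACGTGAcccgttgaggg
Gla, upstream match: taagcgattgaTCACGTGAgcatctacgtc
Gla, downstream match: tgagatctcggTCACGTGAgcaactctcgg
Mcoln1: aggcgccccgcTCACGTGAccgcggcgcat
Atp6v0d1: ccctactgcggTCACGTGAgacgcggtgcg
Atp6v1a: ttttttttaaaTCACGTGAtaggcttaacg

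On GRCm38.p6 these stretches lie at chr2:164833749-164833778 and chr2:164833766-164833795 (plus strand) for *Ctsa*, chr7:142387908-142387937 (minus strand) for *Ctsd*, and chrX:134601215-134601244 and chrX:134601182-134601211 (minus strand) for *Gla*. They lie at chr8:3500462-3500491 (plus strand) for *Mcoln1*, chr8:105566050-105566079 (minus strand) for *Atp6v0d1* and chr16:44139373-44139402 (minus strand) for *Atp6v1a*. Of these 6 genes, *Ctsa*, *Ctsd*, *Gla*, *Atp6v0d1* and *Atp6v1a* were at least 2-fold higher in phagocytes than in Schwann-like cells in both libraries, and *Mcoln1* was not. Among the 29 members whose window lacks the palindrome, 19 were past the same fold. *Ctsa* and *Ctsd* were also among the members higher in lipid-handling phagocytes, beside 11 of the 29. A match in a window is a description of letters and not of binding.

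Phagocytes were compared with Schwann-like cells gene by gene. Of the 41 members, 29 were at least 2-fold higher in phagocytes in both libraries, against 18.7% of 12792 genes with at least 100 UMIs over both classes and libraries. *Scarb2* was the 1 member at least 2-fold lower, against 24.2% of genes, and 11 members lay between. All 41 members passed the UMI minimum, although phagocyte UMIs alone were enough for that. The median log2 ratio of the members was 2.03 in IgG and 2.24 in SPP1-nAb, compared with -0.30 and -0.32 over all genes. Levels are shares of captured UMIs, so the values of different genes are not ranked as amounts of RNA.

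RNA released from broken phagocytes can enter the droplets of other cells. Its level was read from 8 phagocyte genes outside all gates, among them *Lyz2* and *C1qa*, which stood in Schwann-like cells at 2.32% (IgG) and 1.96% (SPP1-nAb) of their level over all cells. In mesenchymal-like cells they stood at 1.16% and 1.30%. By single gene the share ranged from 0.64% to 3.49% (IgG) and 0.95% to 2.54% (SPP1-nAb) in Schwann-like cells. In mesenchymal-like cells it ranged from 1.03% to 1.35% (IgG) and 0.81% to 1.65% (SPP1-nAb). The part removed was set by the pooled share, so a level of 0 after removal holds for that share only. Where removal of this part takes the level of a list member to 0, that is stated beside the value.

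Among the membrane proteins, *Cd68*, a heavily glycosylated macrophage lysosome protein, was at 517 (IgG) and 540 CPM (SPP1-nAb) in phagocytes. In Schwann-like cells it rested on 7 and 26 UMIs, or 5.98 and 17.9 CPM, and after removal of the free-RNA part 0 and 9.91 CPM remained. *Laptm5*, a lysosomal adaptor of blood cells, was at 757 and 789 CPM in phagocytes and at 15.4 and 25.5 CPM in Schwann-like cells. Without the free-RNA part, 2.88 and 12.9 CPM of *Laptm5* remained there, so little of either gene was left in the IgG library. The *Laptm5* ratio of 49.2-fold and 30.9-fold was 29.2-fold and 19.7-fold in graph clusters. *Lamp1*, a main structural glycoprotein of the lysosome membrane, was at 1218 and 1324 CPM in phagocytes. In Schwann-like cells *Lamp1* was at 496 and 503 CPM, a difference of 2.46-fold and 2.63-fold. *Lamp2*, its partner and a receptor of chaperone-mediated autophagy, differed by 2.71-fold and 2.26-fold. The structural proteins of the membrane therefore differed less between the classes than the leukocyte proteins.

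*Scarb2* encodes LIMP-2, a membrane protein that carries β-glucocerebrosidase to the lysosome, and spans chr5:92589169-92654692 on the minus strand (GRCm39). Its level was 448 CPM (524 UMIs) in IgG Schwann-like cells and 492 CPM (714 UMIs) in SPP1-nAb Schwann-like cells. Phagocytes had 87.95 and 92.8 CPM of *Scarb2*, so that Schwann-like cells were 5.09-fold and 5.30-fold higher (log2 ratio -2.35, interval -2.48 to -2.21, and -2.41, interval -2.52 to -2.29). Mesenchymal-like cells had 51.3 and 68.6 CPM. Of the gated classes ranked by level, Schwann-like cells held the highest *Scarb2* level in both libraries. This ranking left out the smallest classes, among them mregDC-like (mature regulatory dendritic), pDC-like (plasmacytoid dendritic) and T or NK-like cells. *Cd63*, a tetraspanin of late endosomes, lysosomes and exosomes at chr10:128731528-128748709 (plus strand), was at 1772 and 2036 CPM in Schwann-like cells and at 799 and 1075 CPM in phagocytes. The difference for *Cd63* was 2.22-fold in IgG and 1.89-fold in SPP1-nAb, so it did not pass 2-fold in both. *Mcoln1*, a calcium channel of the lysosome, was at 19.6 and 16.5 CPM in Schwann-like cells against 14.1 and 13.5 CPM in phagocytes, and the interval of this ratio included 0 on the log2 scale in both libraries.

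Of the cysteine proteases, 7 of 8 passed 2-fold. As a group they summed to 9579 and 11460 CPM in phagocytes and to 648 and 798 CPM in Schwann-like cells. *Ctsb*, cathepsin B, at chr14:63358384-63383372 (plus strand), was at 3180 and 3850 CPM in phagocytes. In Schwann-like cells *Ctsb* was at 248 and 321 CPM, with 203 and 267 CPM after removal of the free-RNA part. The level was 12.8-fold and 11.99-fold below phagocytes as measured, and 15.7-fold and 14.4-fold below without the free-RNA part, so most of the *Ctsb* UMIs in Schwann-like cells remained after that removal. *Ctss*, cathepsin S, which cleaves the invariant chain in antigen presentation, was at 3033 and 3792 CPM in phagocytes. Its Schwann-like level of 21.4 CPM (25 UMIs) and 53.7 CPM (78 UMIs) was 142-fold and 70.6-fold lower, and it was 0 in both libraries after the free-RNA part was removed. With graph clusters in place of gates the *Ctss* ratio was 49.5-fold and 29.95-fold, and with no doublets removed 80.95-fold and 54.5-fold. *Lgmn*, legumain, an asparaginyl endopeptidase that processes other lysosomal proteases, was at 1041 and 1215 CPM in phagocytes and at 43.6 and 59.2 CPM in Schwann-like cells, which is 23.9-fold and 20.5-fold, or 14.7-fold and 13.0-fold in graph clusters. *Ctsc*, cathepsin C, an activator of granule serine proteases, was at 890 and 700 CPM in phagocytes against 53.8 and 47.5 CPM.

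*Ctsk*, cathepsin K, the collagen-degrading protease of osteoclasts, was the cysteine protease that did not pass 2-fold over Schwann-like cells. Phagocytes had 20.8 and 28.7 CPM of *Ctsk* and Schwann-like cells 15.4 and 17.2 CPM. Mesenchymal-like cells had 318 and 506 CPM, 15.2-fold and 17.6-fold above phagocytes. Of the classes ranked, tenocyte-like cells were highest at 488 and 556 CPM. *Ctsk* and *Ctss* lie next to each other on chr3, at 95406178-95416732 and 95433963-95463717, both on the plus strand and 17230 bases apart. Within the same libraries, these neighbors had opposite class patterns, with *Ctss* at 20.1 and 35.9 CPM in mesenchymal-like cells. Nothing of that *Ctss* level remained without the free-RNA part. *Ctsl*, cathepsin L, was also not a phagocyte gene relative to stroma, with 575 and 908 CPM in phagocytes and 760 and 894 CPM in mesenchymal-like cells.

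All 3 aspartic or serine proteases passed 2-fold over Schwann-like cells. *Ctsd*, cathepsin D, the main aspartic protease of lysosomes, was at 681 and 1065 CPM in phagocytes and at 135 and 174 CPM in Schwann-like cells. *Ctsa*, which protects β-galactosidase and neuraminidase 1 in a complex, was at 256 and 287 CPM against 62.4 and 71.0 CPM. *Tpp1*, tripeptidyl peptidase 1, was nearest to the threshold, at 124 and 142 CPM against 61.5 and 62.0 CPM (2.02-fold and 2.30-fold).

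Of the glycosidases, 5 of 7 passed 2-fold. *Hexa*, the α subunit of hexosaminidase that cuts GM2 ganglioside, was at 258 and 279 CPM in phagocytes and at 25.6 and 44.1 CPM in Schwann-like cells. *Gla*, α-galactosidase A, had the largest ratio of the group, with 103 and 135 CPM against 7.69 and 11.7 CPM (13.4-fold and 11.5-fold). *Man2b1*, *Gusb* and *Neu1*, which remove mannose, glucuronic acid and sialic acid, were the others past the threshold. By contrast, *Glb1*, β-galactosidase, was at 21.4 and 24.6 CPM in phagocytes and at 20.5 and 22.0 CPM in Schwann-like cells (log2 ratio 0.07, interval -0.52 to 0.71, and 0.16, interval -0.34 to 0.71). *Gaa*, acid α-glucosidase, which digests glycogen, was highest in mesenchymal-like cells of the classes ranked. Its level there was 52.0 and 67.7 CPM against 17.7 and 19.9 CPM in phagocytes.

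The lipid and sterol genes were divided, with *Npc2*, *Psap* and *Asah1* past 2-fold and 4 others not. *Psap*, the precursor of saposins that present sphingolipids to hydrolases, was at 2207 and 3278 CPM in phagocytes and at 421 and 487 CPM in Schwann-like cells. *Npc2*, the soluble cholesterol carrier of the lumen, was at 1232 and 1168 CPM against 126 and 132 CPM (9.81-fold and 8.88-fold). *Npc1*, the membrane protein that takes cholesterol from NPC2 and exports it, was at 119 and 178 CPM in phagocytes and at 120 and 160 CPM in Schwann-like cells. The *Npc1* ratio was -0.02 (interval -0.26 to 0.23) and 0.15 (interval -0.04 to 0.34) on the log2 scale. The cholesterol partners *Npc2* and *Npc1* therefore had unlike class patterns. *Lipa*, the acid lipase that releases cholesterol from its esters, was at 252 and 288 CPM in phagocytes and at 196 and 186 CPM in Schwann-like cells. Both *Npc1* and *Lipa* were at least 2-fold lower in mesenchymal-like than in Schwann-like cells, with 37.1 and 41.7 CPM of *Npc1* and 59.8 and 76.6 CPM of *Lipa*. *Smpd1*, acid sphingomyelinase, rested on 6 and 14 UMIs in Schwann-like cells, and its direction differed between the libraries. *Ppt1*, a thioesterase that removes palmitate from proteins, was higher by 1.95-fold and 2.15-fold.

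Of the proton pump genes, 6 of 7 passed 2-fold. *Atp6v0c*, the proteolipid ring subunit of the membrane sector, was at 1090 and 1304 CPM in phagocytes and at 207 and 276 CPM in Schwann-like cells (5.27-fold and 4.72-fold). The d subunit of that sector has a widely expressed form, *Atp6v0d1* (chr8:106251086-106292747, minus strand), and a form known from osteoclasts, *Atp6v0d2* (chr4:19876838-19922614, minus strand). *Atp6v0d1* was at 131 and 150 CPM in phagocytes and at 39.3 and 46.9 CPM in Schwann-like cells. *Atp6v0d2* was at 42.0 and 97.8 CPM in phagocytes and rested on 2 UMIs per library in Schwann-like cells. Nothing of this Schwann-like level remained in SPP1-nAb after the free-RNA part was removed. With so few UMIs the interval of the *Atp6v0d2* log2 ratio was wide, at 4.62 (interval 2.77 to 7.67) in IgG and 6.15 (interval 4.30 to 9.20) in SPP1-nAb. The accessory subunit *Atp6ap1* was the 1 pump gene under 2-fold in both libraries, at 119 and 143 CPM against 65.8 and 73.7 CPM.

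Of the regulators, *Grn*, the precursor of granulins, was at 627 and 682 CPM in phagocytes and at 46.1 and 58.6 CPM in Schwann-like cells (13.6-fold and 11.6-fold). *Tfeb*, the transcription factor that activates lysosome genes, was at 24.0 and 23.7 CPM in phagocytes. With 22 and 16 UMIs in Schwann-like cells, its ratio was 1.28-fold in IgG and 2.15-fold in SPP1-nAb. The regulator *Tfeb* thus did not pass 2-fold over Schwann-like cells in both libraries. Over mesenchymal-like and over satellite cell or myoblast-like cells it did.

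**Figure D2:**
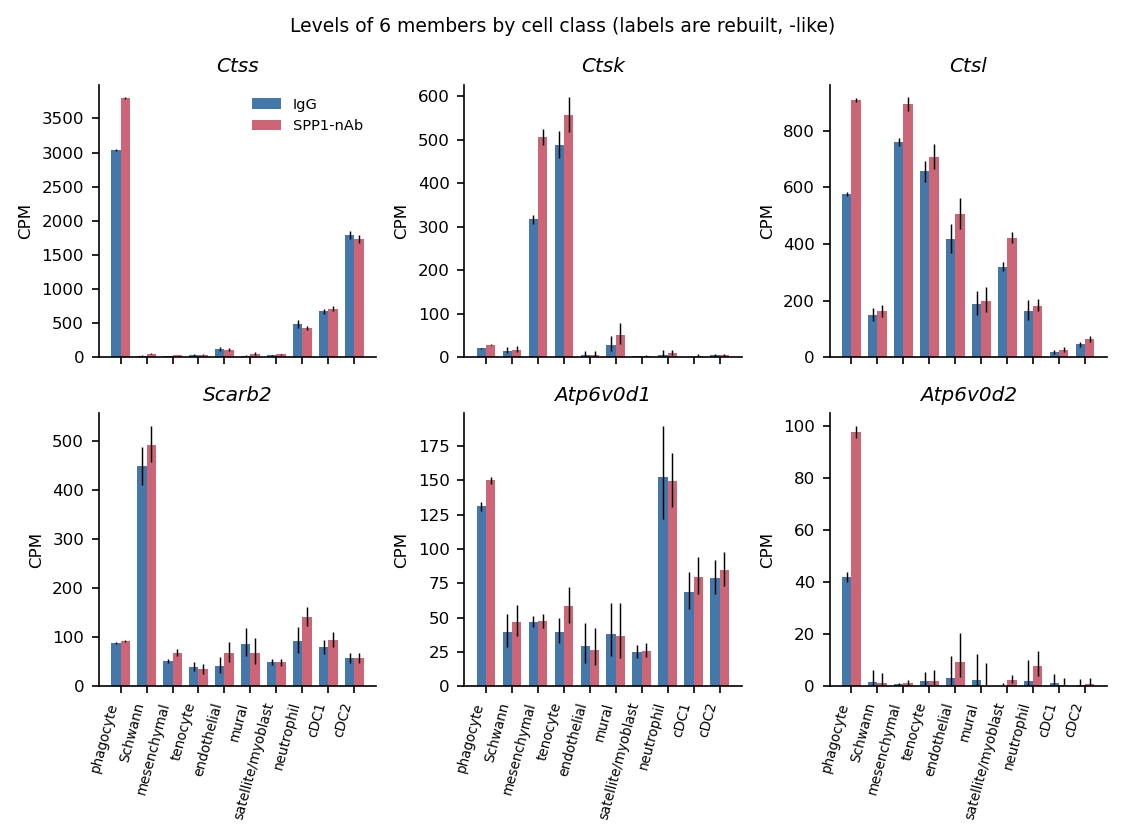
Levels of 6 members (y axis, CPM, 1 panel per gene) by gated cell class (x axis) in the IgG and SPP1-nAb libraries, with 95% counting intervals as black lines. *Ctss* and *Atp6v0d2* are highest in phagocytes, *Scarb2* in Schwann-like cells and *Ctsk* in tenocyte-like and mesenchymal-like cells, while *Ctsl* and *Atp6v0d1* are spread over several classes.

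Against mesenchymal-like cells, 30 members were at least 2-fold higher in phagocytes in both libraries, against 17.9% of all genes, and *Ctsk* and *Gaa* were at least 2-fold lower, against 24.5% of genes. The median log2 ratio of the members was 1.87 in IgG and 1.75 in SPP1-nAb, compared with -0.07 in both over all genes. *Lamp2* lay at 653 and 619 CPM in phagocytes and at 576 and 617 CPM in mesenchymal-like cells, so this membrane protein was of like level in both. Over tenocyte-like cells 29 members were at least 2-fold higher (21.2% of genes), over endothelial-like cells 34 (16.5% of genes) and over satellite cell or myoblast-like cells 34 (21.4% of genes). The list summed to 3459 and 3969 CPM in endothelial-like cells and to 3981 and 4604 CPM in satellite cell or myoblast-like cells, below the level of Schwann-like cells.

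Schwann-like cells, at 5615 and 6434 CPM of the list, and mesenchymal-like cells, at 6104 and 7392 CPM, were also compared directly. Of 40 members with enough UMIs over both classes and libraries, 10 were at least 2-fold higher in mesenchymal-like cells (16.2% of genes). *Ctsk* led at 20.6-fold and 29.4-fold. The others were *Man2b1*, *Hexa*, *Ctsh*, *Grn*, *Gaa*, *Npc2*, *Ctsl*, *Ctsb* and *Lamp2*. Mesenchymal-like UMIs alone could meet the UMI minimum. In Schwann-like cells, *Ctsk*, *Man2b1*, *Hexa*, *Ctsh*, *Gaa* and also *Laptm5* stayed under it over both libraries. The size of their ratios is therefore uncertain. At least 2-fold higher in Schwann-like cells were *Scarb2*, *Npc1*, *Lipa* and *Laptm5*, which is 4 members, against 13.0% of genes. For *Laptm5*, the Schwann-like level falls to 2.88 and 12.9 CPM without the free-RNA part. Neither count stands far from the share of all genes, so it describes these members and not the list.

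**Figure D3:**
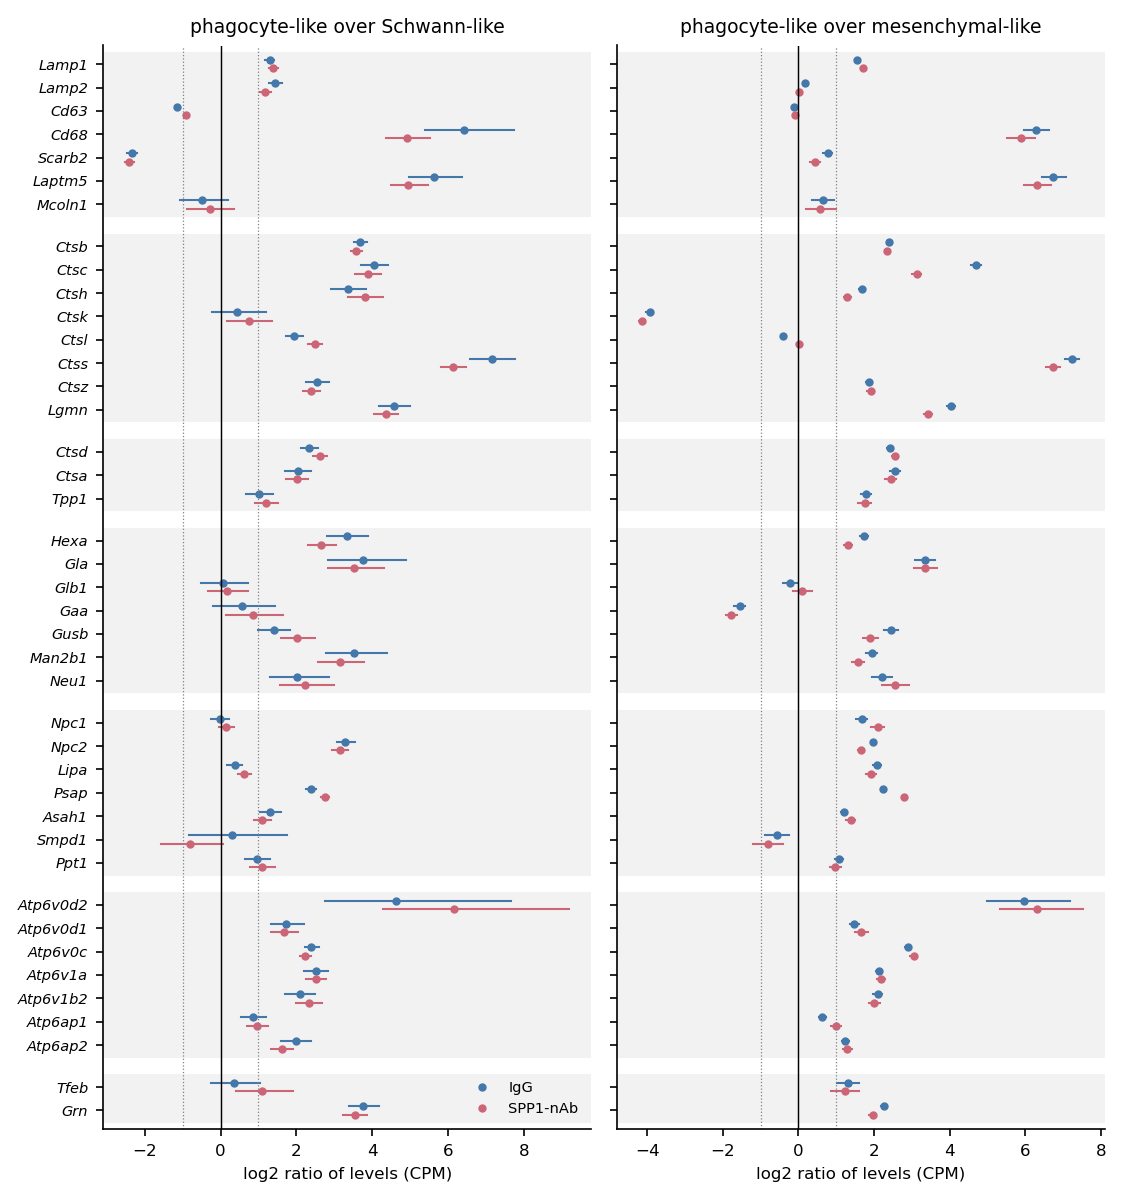
Log2 ratio of phagocytes over Schwann-like cells (left) and over mesenchymal-like cells (right) for each of the 41 members (y axis, grouped by role), with 1 point per library, 95% counting intervals as lines and dotted lines at 2-fold. Most members lie to the right of the upper dotted line in both panels, *Scarb2* lies furthest to the left against Schwann-like cells, and *Ctsk* and *Gaa* lie to the left against mesenchymal-like cells.

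Schwann-like cells were split by which gene set had more summed UMIs, *Reln*, *Met* and *Sema5a* or *Postn*, *Tgfb2* and *Chl1*. The former led or tied in 149 and 179 cells, named *Reln*-positive although a UMI of any of its genes was enough. The latter led in 229 and 237 cells. Only 25 members had enough UMIs here. None of the 25 was 2-fold higher or lower, against 2.33% and 3.70% of all genes. *Psap* was at 538 and 610 CPM in the *Reln*-positive cells and lower in the others, where it was at 342 (IgG) and 400 CPM (SPP1-nAb), or log2 0.65 (interval 0.39 to 0.91) and 0.61 (interval 0.39 to 0.83). *Scarb2* was at 502 and 545 CPM against 410 and 450 CPM. The high *Scarb2* level thus occurred in both kinds of Schwann-like cell.

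Phagocytes were next divided by state panels, again without any of the 41 genes. A lipid-handling state was gated by *Gpnmb*, *Syngr1*, *Fabp5*, *Trem2* and *Lpl*, genes known from macrophages that take up myelin and lipid. It held 1081 IgG cells (9.10% of phagocytes) and 2559 SPP1-nAb cells (16.9%). *Gpnmb* itself encodes a protein of lysosomes and melanosomes, so the gate is not independent of the organelle. A state is a range of a score and not a type: 1054 IgG and 1431 SPP1-nAb phagocytes lay within 0.1 of the cutoff of 0.5. The state also had more UMIs per cell, with medians of 5642 and 6616 against 3985 and 4991 in all phagocytes, and the part of cell size in the levels was not tested.

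Lipid-handling cells had the highest list sum of all classes and states, 36492 (IgG) and 40576 CPM (SPP1-nAb). This was 1.79-fold and 1.76-fold the level of the other phagocytes (log2 ratio 0.84 and 0.82), and 6.499-fold and 6.31-fold that of Schwann-like cells. Individually, 16 members were at least 1.5-fold higher than in the other phagocytes in both libraries, against 3.24% of 12365 genes, and *Ctsc* was lower, against 15.9% of genes. The median log2 ratio of the members was 0.53 and 0.43, compared with -0.12 and -0.10 over all genes. With *Gpnmb* left out of the panel, 16 members again passed the threshold.

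The pump subunit *Atp6v0d2* was already tied to lipid-handling phagocytes in earlier results of these data, so its high level here is not an independent result. It was at 199 (IgG) and 277 CPM (SPP1-nAb) against 19.6 and 48.4 CPM in the other phagocytes (10.1-fold and 5.72-fold). Its widely expressed counterpart *Atp6v0d1* was at 158 and 159 CPM against 127 and 147 CPM, a ratio of 1.24-fold and 1.08-fold. *Atp6v0d2* UMIs were found in 34.6% and 46.4% of lipid-handling cells, and in 23.3% and 29.1% when cells were thinned to 2000 UMIs, which left out 13 and 28 cells. In Schwann-like cells the shares were 0.513% and 0.473%, and 0.639% and 0.267% at 2000 UMIs, with 77 and 49 cells left out. *Atp6v0d2* was lowest in classical monocyte-like cells, at 3.55 and 10.9 CPM, and second in the Dcstamp state, at 52.8 and 131 CPM. The Dcstamp state is named for *Dcstamp*, a gene of cell fusion.

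Among proteases of the lipid-handling state, *Ctsd* was at 1950 and 2322 CPM against 499 and 718 CPM in the other phagocytes (3.90-fold and 3.23-fold). *Ctsl* was at 1381 and 1763 CPM (3.00-fold and 2.62-fold) and *Ctsb* at 6367 and 6695 CPM (2.34-fold and 2.18-fold). *Ctsk* was at 74.8 and 64.9 CPM (5.72-fold and 3.46-fold), still below its level in mesenchymal-like and tenocyte-like cells. Of the 7 lipid and sterol genes, *Psap*, *Lipa* and *Npc1* passed the threshold, and *Npc2*, *Asah1*, *Smpd1* and *Ppt1* did not. *Psap* was at 4688 and 5573 CPM (2.53-fold and 2.11-fold) and *Lipa* at 537 and 516 CPM. *Npc1* was at 212 and 250 CPM (2.01-fold and 1.57-fold). *Cd63* was at 1738 and 1995 CPM, which brought this state to the range of Schwann-like cells (1772 and 2036 CPM). The remaining members past the threshold were *Ctsa*, *Ctsz*, *Ctss*, *Tpp1*, *Lamp1*, *Cd68* and *Gaa*.

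*Ctsc* had the opposite pattern. It was at 342 and 356 CPM in the lipid-handling state and at 968 and 794 CPM in the other phagocytes, 2.83-fold and 2.23-fold lower. The highest *Ctsc* levels were 1481 and 1170 CPM in the resident state, gated by *Lyve1* and *Folr2*, and 1422 and 1198 CPM in the Gpr34 state. *Lgmn* (1.40-fold and 1.31-fold) and the pump ring subunit *Atp6v0c* (1.51-fold and 1.34-fold) did not pass the threshold in both libraries. *Lamp2* and *Laptm5* were slightly lower there, with a log2 ratio of -0.16 and -0.14 for *Lamp2*. Not every lysosomal gene was therefore higher in this state.

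**Figure D4:**
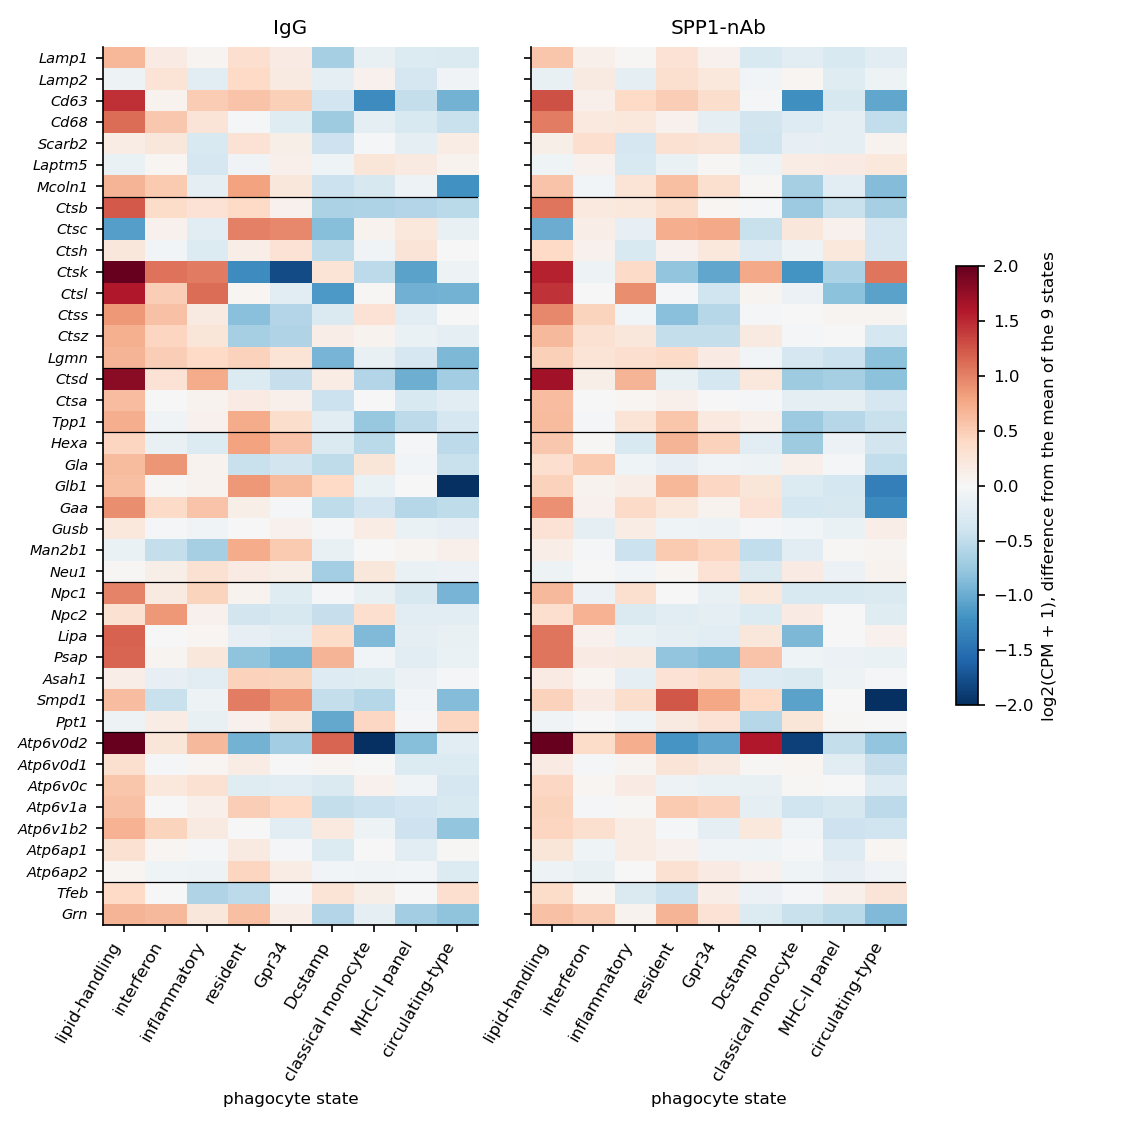
Color map of the 41 members (y axis, grouped by role) over the 9 phagocyte states (x axis) in IgG and SPP1-nAb, showing log2 of CPM plus 1 as the difference from the member's mean over the states, with the color scale ending at 2 in either direction. In the lipid-handling column *Atp6v0d2*, *Ctsk*, *Ctsd*, *Ctsl* and *Cd63* are strongly above their mean, and *Ctsc* is below it.

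In resident-state phagocytes, 3 members were at least 1.5-fold higher in both libraries, against 15.7% of genes. These were *Ctsc*, *Hexa* at 394 and 415 CPM, and *Smpd1* at 10.8 CPM in both libraries (69 and 53 UMIs). In the same state 6 members were lower (9.03% of genes), namely *Ctsz*, *Ctsk*, *Ctss*, *Ctsd*, *Psap* and *Atp6v0d2*. The Gpr34 state had 1 member higher, *Ctsc* (15.3% of genes), and 7 lower (8.55% of genes), which were those 6 and *Ctsl*. The lipid-handling state was above the resident state for several members. *Ctsd* differed between them by 4.26-fold and 3.52-fold, *Psap* by 3.90-fold and 3.65-fold, *Ctss* by 3.24-fold and 3.46-fold and *Atp6v0d2* by 17.3-fold and 15.2-fold. Others were lower in the lipid-handling than in the resident state. Among these were *Ctsc* (4.33-fold and 3.285-fold), *Man2b1* (1.85-fold and 1.32-fold) and *Lamp2* (1.41-fold and 1.39-fold).

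The interferon state, gated by *Ifit2* and *Rsad2*, had 1 member higher (4.46% of genes) and 1 lower (8.18% of genes). The first was *Npc2*, at 2140 and 1833 CPM against 1107 and 1129 CPM in the other phagocytes, and the second was *Atp6v0d2*. The inflammatory state, gated by *Arg1* and *Cxcl3*, had 0 members past 1.5-fold in either direction, against 2.27% of genes higher and 15.6% lower. Classical monocyte-like cells had 11 members lower (15.1% of genes), with *Ctsd* at 370 and 445 CPM. Among circulating-type phagocytes, 110 and 140 cells led in part by neutrophil and progenitor genes, 13 members were lower (13.6% of genes). This count includes *Smpd1*, which had 0 UMIs there in SPP1-nAb, and is 12 without it. The UMI minimum could be met by the other phagocytes alone, and this state held 457796 (IgG) and 665718 UMIs (SPP1-nAb). *Smpd1* (2.18 CPM in IgG), *Glb1* (2.18 and 7.51 CPM) and *Mcoln1* (4.37 and 6.01 CPM) thus rested on few UMIs there. Their part in the count is uncertain. Phagocytes gated by the MHC-II panel had 11 members lower (5.78% of genes), among them *Ctsd* at 282 and 460 CPM. The leading genes of that group include *Cd209a* and *Klrd1*, which mark dendritic cells, so it is not read as a macrophage state. The group made up 16.7% (IgG) and 14.85% (SPP1-nAb) of phagocytes, with a list sum of 16874 and 20658 CPM. It remained in all phagocyte levels and among the other phagocytes to which states were compared. In the Dcstamp state, *Cd68* and *Ppt1* were lower, which is 2 members, against 11.2% of genes.

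Levels were then compared between SPP1-nAb and IgG within each class. In phagocytes the list sum was 22413 (IgG) and 26818 CPM (SPP1-nAb), a log2 ratio of 0.26 (interval 0.256 to 0.262) or 1.20-fold. By gene, 4 members were at least 1.5-fold higher in SPP1-nAb, against 2.63% of 12365 genes, and 0 members were 1.5-fold lower, against 8.32% of genes. Of the 41 members, 34 had a ratio above 0, and the median was 0.17, compared with -0.04 over all genes. *Atp6v0d2* was at 42.0 (IgG) and 97.8 CPM (SPP1-nAb) (2.33-fold, log2 ratio 1.22, interval 1.15 to 1.29). *Ctsl* was at 575 and 908 CPM (1.58-fold), *Ctsd* at 681 and 1065 CPM (1.56-fold) and *Npc1* at 119 and 178 CPM (1.503-fold). *Npc1* fell under the threshold when 20% of barcodes were removed as doublets or the gates asked for 1 more marker, leaving 3 members. *Psap* lay just under the threshold at 2207 and 3278 CPM (log2 ratio 0.57), and passed it with 5 members in all when no doublets were removed, with single-cell means or with the median ratio of all genes set to 1. *Ctsc* was lower, at 890 and 700 CPM (log2 ratio -0.35).

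The members higher in SPP1-nAb phagocytes were also among those higher in the lipid-handling state, whose share of phagocytes was larger in that library. Shares of other states differed as well. The Dcstamp state held 2.82% (IgG) and 7.655% (SPP1-nAb) of phagocytes, and the resident state 13.6% and 6.75%. Whether state shares account for the difference between the libraries was not tested. When the shares of all states were held equal, an alternative chosen after seeing the data, the list ratio was 0.18 in place of 0.26 and 33 members lay above 0, with a median of 0.16. Past 1.5-fold, 1 member remained, *Atp6v0d2*, at a log2 ratio of 0.69. *Ctsl* was then at 0.44, *Npc1* at 0.47 and *Ctsd* at 0.36. With lipid-handling cells left out, the list ratio was 0.18 and 2 members were past the threshold, *Npc1* and *Atp6v0d2*. The share of all genes was not calculated under these alternatives, so the counts describe the members only.

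Within the lipid-handling state itself, 0 of 41 members were past 1.5-fold, against 2.01% of genes higher and 2.34% lower in SPP1-nAb. *Atp6v0d2* was at 199 (IgG) and 277 CPM (SPP1-nAb) (log2 ratio 0.48, interval 0.39 to 0.57) and *Ctsl* at 1381 and 1763 CPM. The list ratio was above 0 in 9 of 9 states, from 0.07 in classical monocyte-like cells to 0.44 in the Dcstamp state. In the Dcstamp state 10 of 40 members were at least 1.5-fold higher in SPP1-nAb, against 8.06% of genes. Among them *Ctsl* was at 206 and 674 CPM (3.27-fold), *Lgmn* at 456 and 1027 CPM, *Ctsb* at 1753 and 3086 CPM and *Atp6v0d2* at 52.8 and 131 CPM. The number of cells in that state was 335 in IgG and 1158 in SPP1-nAb, and whether the same cells entered the gate in both libraries was not tested.

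In Schwann-like cells the list sum was 5615 (IgG) and 6434 CPM (SPP1-nAb) (log2 ratio 0.20, interval 0.15 to 0.24). Of 26 members with enough UMIs, 1 was at least 1.5-fold higher in SPP1-nAb (1.21% of genes) and 0 were lower (2.11% of genes). The gene was *Ctss*, with 25 UMIs in IgG and 78 in SPP1-nAb (log2 ratio 1.33, interval 0.67 to 2.04), and nothing of it remained in either library without the free-RNA part. The Schwann-like members had smaller ratios, namely *Cd63* 0.20 (interval 0.12 to 0.28), *Scarb2* 0.14 (interval -0.03 to 0.30), *Npc1* 0.41 (interval 0.11 to 0.73) and *Ctsb* 0.37 (interval 0.16 to 0.59).

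In mesenchymal-like cells 5 of 40 members were at least 1.5-fold higher in SPP1-nAb (4.92% of genes) and 0 were lower (7.34% of genes). *Ctsk* was at 318 (IgG) and 506 CPM (SPP1-nAb) (log2 ratio 0.67, interval 0.60 to 0.74). *Ctsc* was at 34.3 and 80.1 CPM, *Lgmn* at 63.3 and 113 CPM and *Gusb* at 20.4 and 31.6 CPM. *Ctss* was at 20.1 and 35.9 CPM, and 0 without the free-RNA part in both libraries. Mesenchymal-like cells also differed in number and depth between the libraries, and the part of depth was not tested. Across the 13 gated classes, the list ratio of SPP1-nAb over IgG was above 0 in 12, from -0.0011 in mregDC-like cells to 0.31 in tenocyte-like cells. The interval included 0 in mregDC-like, pDC-like (0.02, interval -0.08 to 0.12) and T or NK-like cells (0.16, interval -0.05 to 0.37). In the other classes it lay above 0, so the higher list level in the SPP1-nAb library was not particular to phagocytes. A difference between the libraries and a difference between the antibodies cannot be told apart.

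**Figure D5:**
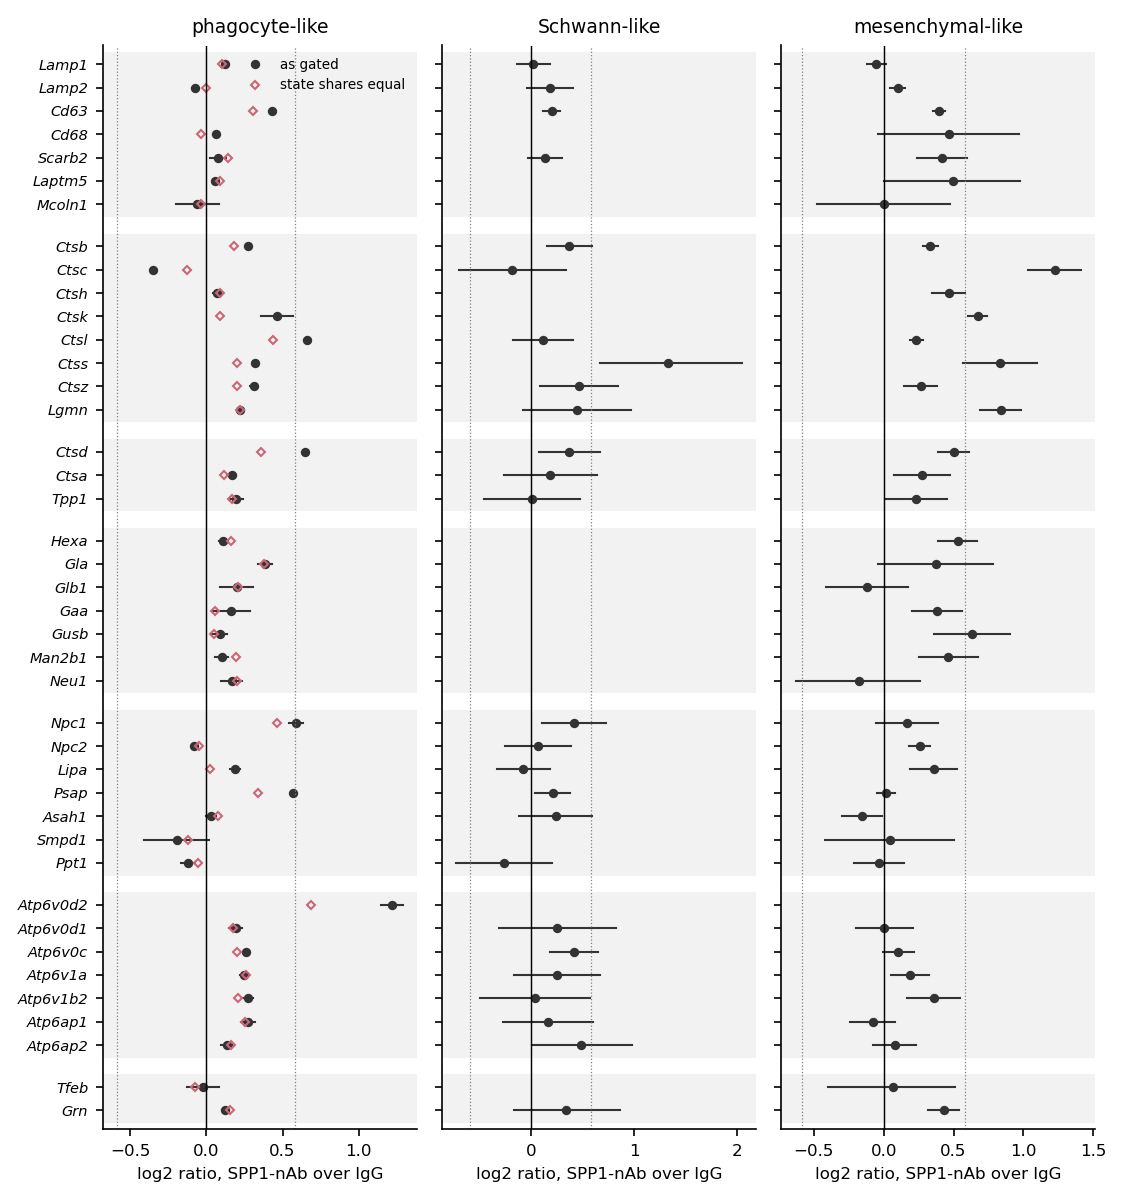
Log2 ratio of SPP1-nAb over IgG (x axis, a separate scale per panel) for each member (y axis, grouped by role) with at least 100 UMIs in phagocytes, Schwann-like cells and mesenchymal-like cells. Filled points show the cells as gated with 95% counting intervals, open diamonds show phagocytes with state shares held equal, and dotted lines mark 1.5-fold. Most points lie above 0 in each panel, and *Atp6v0d2* in phagocytes moves from 1.22 to 0.69 when the shares are equal.

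For context, 78 other lysosome genes (further hydrolases, transporters, pump subunits, cathepsin inhibitors and relatives of TFEB) were measured in the same way, and 68 had enough UMIs. Over Schwann-like cells, 32 of the 68 were at least 2-fold higher in phagocytes (18.7% of all genes) and 6 lower (24.2%), with median log2 ratios of 1.06 and 1.10. Among those with large ratios was *Slc15a3*, a lysosomal peptide transporter, at 60.7-fold and 55.9-fold on 6 and 9 Schwann-like UMIs. *Plbd1*, a phospholipase B-like protein, was at 34.5-fold and 22.9-fold on 8 and 16 Schwann-like UMIs. Free RNA was not removed from the levels behind these ratios. *Acp5*, tartrate-resistant acid phosphatase, rested on 2 and 3 Schwann-like UMIs in its ratio (log2 4.05, interval 2.19 to 7.10, and 4.93, interval 3.38 to 7.21). *Laptm4b*, *Atp6v0e2* and *Ctsf* were lower in phagocytes, with *Laptm4b* at 3.25 and 2.84 CPM against 87.1 and 77.8 CPM. In Schwann-like cells the high genes thus include other membrane proteins and a pump subunit, beside *Scarb2* and *Cd63* of the list.

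Over mesenchymal-like cells, 29 of the 68 other genes were at least 2-fold higher in phagocytes (17.9% of all genes) and 8 lower (24.5%). *Tfec*, a relative of TFEB of the macrophage lineage, was at 51.1 and 65.4 CPM in phagocytes with 3 UMIs per library in mesenchymal-like cells (log2 ratio 7.66, interval 6.11 to 9.94, and 7.15, interval 5.61 to 9.43). *Igf2r*, the receptor that carries mannose 6-phosphate tagged hydrolases, was 3.93-fold and 3.33-fold lower in phagocytes than in mesenchymal-like cells. In the lipid-handling state 14 of the 68 were at least 1.5-fold higher (3.24% of all genes) and 4 lower (15.9%), with median log2 ratios of 0.32 and 0.25. *Igf2r* (3.52-fold and 2.88-fold), *Sort1*, a sorting receptor for lysosomal proteins (3.07-fold and 2.43-fold), and *Acp5* (2.96-fold and 2.73-fold) led, and *Ctsf*, *Plbd1* and *Atp6v1g2* were lower. Between the libraries, 3 of the 68 were at least 1.5-fold higher in SPP1-nAb phagocytes, against 2.63% of all genes, and 3 lower, against 8.32%. *Acp5*, at 28.3 (IgG) and 63.1 CPM (SPP1-nAb) (2.23-fold), had the largest difference, followed by *Cst7* and *Mcoln2*, while *Atp6v1g2*, *Ctse* and *Arsb* were lower.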

How the data were processed

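The authors deposited raw UMI counts per gene and barcode for 2 libraries, unnormalized. Submitters' processing notes name Cell Ranger 8.0.0 and GRCm39, and per the file headers version 9.0.1 was used. Ambient-RNA and doublet removal described by the study came later and are not in these counts. The libraries held 97607674 (IgG) and 127719916 (SPP1-nAb) UMIs on 23779 and 25069 barcodes. Barcodes with more than 200 genes and under 10% mitochondrial UMIs were used (23385 and 24758), and the 10% with the highest share of simulated doublets among their neighbors were removed per library.

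Cells took the class with the largest share of its panel detected, with at least 3 panel genes (2 for satellite cells). Cells that passed gates of several lineages or tied between classes (273 IgG and 322 SPP1-nAb) were left out. Cells that passed no gate (2295 and 2021) were left out too. A Schwann-like cell with enough phagocyte panel genes was thus removed, which can lower phagocyte genes in that class. Phagocytes took a state from a panel score of at least 0.5 with at least 2 genes. UMIs were summed per class and library. Intervals were exact: Poisson for CPM, Clopper-Pearson for shares and conditional binomial for ratios. A gene was compared with at least 100 UMIs over both sides and libraries. The fold was 2 between classes and 1.5 between states or libraries, in every library compared. No test was made. Named genes were, per role, the highest in phagocytes, those with extreme ratios to Schwann-like cells and those past 1.5-fold between libraries. Others were named after their values were seen, and so was the choice of genes in the plots. The members and lists were chosen with earlier results of these data known. Coordinates are GENCODE M39 (GRCm39), matched by identifier. Motif positions are RefSeq (GRCm38.p6).

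The calculations, tested on simulated data, used Python 3.11.15 with numpy 2.4.6, scipy 1.17.1, pandas 2.3.3, scikit-learn 1.9.0 and, for the graph clusters of an alternative, leidenalg 0.10.2. Alternatives covered doublet removal, gates, class definition, the total used for CPM, single-cell means, free RNA and the members of highest level.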

Additional observations from a re-analysis of the deposited data

How the results depend on the processing

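No list ratio turned its direction under the alternatives run, whereas *Npc1* over Schwann-like cells in IgG, which was past no threshold, ranged from -0.11 to 0.03 (log2). Each list ratio of phagocytes over Schwann-like or mesenchymal-like cells stayed within its counting interval in 3 or 4 of 9 alternatives. The counting intervals thus do not cover the spread from processing. Phagocytes over Schwann-like cells (log2, list sum, IgG then SPP1-nAb) gave 2.06 and 2.13 without the free-RNA part, 2.05 and 2.11 without mitochondrial and ribosomal genes in the total, 1.95 and 1.99 as a mean of single-cell CPM, and 1.47 and 1.47 without the 5 highest members. Gates with 1 more marker gave 1.95 in IgG, and graph clusters gave 2.02 in SPP1-nAb. Over mesenchymal-like cells the values were 1.90 and 1.90 without free RNA, 1.859 and 1.805 as single-cell means, 1.865 and 1.838 with 1 more marker, 1.86 and 1.83 in graph clusters, and 1.39 and 1.25 without the 5 highest members. Removal of 20% of barcodes as doublets gave 1.84 in SPP1-nAb. SPP1-nAb over IgG in phagocytes was 0.27 with no doublets removed, 0.25 with 1 more marker, 0.30 with the median ratio of all genes set to 1 and 0.18 without the 5 highest members. With state shares held equal it was 0.18 with 1 member past 1.5-fold, and without lipid-handling cells 0.175 with 2 members, both chosen after seeing the data. Without *Gpnmb* in the panel, lipid-handling over other phagocytes was 0.79 and 0.79.

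The count of 29 members over Schwann-like cells stayed at 28 to 30 in 9 alternatives, and the Schwann-like list ratio between libraries at 0.16 to 0.22 in 10. *Ctss*, and *Atp6v0d2* in SPP1-nAb, gave no finite ratio over Schwann-like cells without free RNA. Leaving out a replicate was not possible with 1 library per condition. No paired analysis was possible because each condition had 1 library. The UMIs summed per class limit the values: 26 of 41 members reached 100 UMIs over both libraries in Schwann-like cells and 14 in endothelial-like cells. No p-value can be given.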

Other observations

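Not all members were highest in phagocytes among the leukocyte-like classes ranked. As before, mregDC-like, pDC-like and T or NK-like cells were left out of the ranking. Of the classes ranked, neutrophil-like cells, gated by genes such as *S100a8* and *Retnlg*, were highest for 5 members in both libraries. These were *Gla*, *Neu1*, *Atp6v0c*, *Atp6ap2* and *Tfeb*. *Gla* was at 188 CPM in IgG (102 UMIs) and 189 CPM in SPP1-nAb (292 UMIs) in neutrophil-like cells, compared with 103 and 135 CPM in phagocytes. *Neu1*, the sialidase, was at 110 and 99.8 CPM against 52.2 and 58.6 CPM. *Tfeb* was at 34.9 CPM (19 UMIs) and 57.0 CPM (88 UMIs) against 24.0 and 23.7 CPM, and its IgG interval of 21.04 to 54.6 CPM included the phagocyte level. These cells were shallow, with a median of 1237 and 1379 UMIs, and the part of depth was not tested.

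Of the classes ranked, cDC1-like or cDC2-like cells had the highest level for 3 members. *Ppt1*, which removes palmitate from proteins, was at 967 and 788 CPM in cDC1-like cells and at 132 and 121 CPM in phagocytes. *Man2b1*, lysosomal α-mannosidase, was at 288 and 286 CPM against 137 and 147 CPM. *Ctsh*, cathepsin H, was at 403 and 409 CPM in cDC2-like cells against 376 and 394 CPM in phagocytes. The counting intervals of *Ctsh* overlapped in both libraries (in SPP1-nAb 382 to 437 CPM and 390 to 398 CPM). The class with the highest level was the same in both libraries for 33 of the 41 members, and for 20 of these it was the phagocytes. No share of all genes by highest class was calculated. The counts for phagocytes, neutrophil-like and dendritic cell classes therefore describe these members only.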
